A study of Mus musculus with 8 samples.

Results

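Rn7sk, Rmrp and Rpph1 are short noncoding RNAs that RNA polymerase III makes in large amounts, and their levels were followed in mouse embryonic stem cells (ESCs) leaving serum for 2i medium. The members were taken by symbol from GENCODE M21 and are 3 of the 37263 Ensembl genes counted in each library. They are Rn7sk (ENSMUSG00000065037, chromosome 9), Rmrp (ENSMUSG00000088088, chromosome 4) and Rpph1 (ENSMUSG00000092837, chromosome 14), all annotated on the minus strand. All 3 passed the filter on low counts, as did 14931 genes in all. Their large share of the counts was part of the reason for choosing them, so it is given as a description.

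The cells were E14, an ESC line of 129/Ola background that grows without feeders, and RNA was collected 4, 16, 24, and 32 hr after the change of medium. Every library came from 2i, a serum-free medium in which PD0325901 blocks MEK and CHIR99021 blocks GSK3, with LIF. The 2i group received nothing further, and the vitC group also received 17 µM vitC (L-ascorbic acid), a cofactor of the dioxygenases that oxidize methylated DNA and demethylate histones. There was 1 library for every pairing of time with treatment, 8 in all, the labels do not say whether the cultures were grown separately, and no serum library was analysed here.

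Rn7sk, the 7SK RNA, is the scaffold of a nuclear particle that holds the kinase P-TEFb (CDK9 with cyclin T) inactive through HEXIM proteins, and so sets how much kinase is free to release paused RNA polymerase II. Rmrp is the RNA of RNase MRP, which cleaves the precursor of ribosomal RNA, and Rpph1 is the catalytic RNA of RNase P, which removes the 5′ leader of precursor tRNAs. The RNase P and RNase MRP particles share most of their proteins. All 3 genes belong to the polymerase III class whose promoter lies upstream of the transcribed part and is read by the SNAPc complex and a BRF2-containing initiation factor. The transcripts carry no poly(A) tail, and they are seen here because the libraries were made by removing ribosomal RNA, without a poly(A) selection.

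The RNA sequences are shown because a read of 50 bases from part of each one can also be placed on another annotated transcript, which bears on how far its count is its own. Sequences are those of the GENCODE M21 transcripts (GRCm38), 5′ to 3′, written with T, and capitals mark the bases that lie in no 50-base window held exactly by a transcript of another annotated gene. Rmrp is given whole (bases 1 to 271), Rpph1 from base 1 to 300 of 319, and Rn7sk from base 32 to 331 of 331.
Rn7sk: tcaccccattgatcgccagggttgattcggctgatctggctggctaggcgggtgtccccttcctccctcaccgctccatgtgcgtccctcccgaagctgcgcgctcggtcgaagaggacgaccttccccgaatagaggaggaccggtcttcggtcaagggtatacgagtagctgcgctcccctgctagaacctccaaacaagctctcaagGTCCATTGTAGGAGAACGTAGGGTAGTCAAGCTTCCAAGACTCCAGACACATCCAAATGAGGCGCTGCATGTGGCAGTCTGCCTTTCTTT
Rmrp: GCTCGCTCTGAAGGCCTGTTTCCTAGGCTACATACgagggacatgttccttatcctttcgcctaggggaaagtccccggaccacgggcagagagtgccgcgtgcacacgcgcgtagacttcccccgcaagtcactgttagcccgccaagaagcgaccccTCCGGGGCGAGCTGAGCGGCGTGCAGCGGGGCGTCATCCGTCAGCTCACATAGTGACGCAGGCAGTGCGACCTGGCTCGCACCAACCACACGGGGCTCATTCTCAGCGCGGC
Rpph1: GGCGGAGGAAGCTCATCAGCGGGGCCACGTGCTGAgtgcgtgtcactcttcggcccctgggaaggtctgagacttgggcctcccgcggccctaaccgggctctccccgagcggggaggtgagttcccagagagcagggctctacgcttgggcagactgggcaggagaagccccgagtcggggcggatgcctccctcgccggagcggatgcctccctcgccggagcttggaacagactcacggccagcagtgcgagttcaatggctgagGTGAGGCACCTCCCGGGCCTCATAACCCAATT

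**Figure D1:**
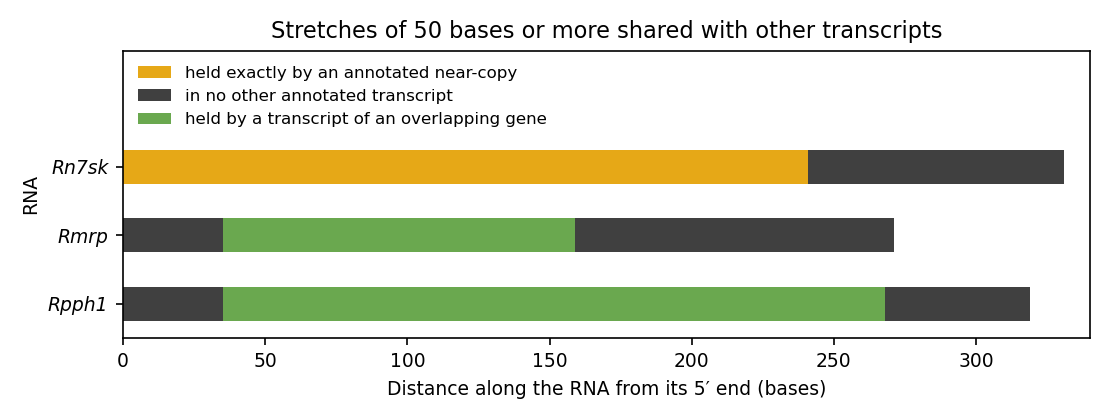
Map along each RNA (bases from the 5′ end) of stretches made of 50-base windows that other annotated transcripts also hold. Bases 1 to 241 of Rn7sk are held by near-copies, bases 36 to 159 of Rmrp and 36 to 268 of Rpph1 by transcripts of genes that overlap them, and the dark stretches by none.

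The Rn7sk RNA is 331 bases long with 58.0% G and C, Rmrp is 271 bases long with 64.2%, and Rpph1 is 319 bases long with 67.1%. Rn7sk has 24 annotated noncoding near-copies (at least 85% identity over at least 50 bases), and 192 of its 282 windows of 50 bases (68.1%) occur exactly in at least 1 of them. All such windows lie in bases 1 to 241, so only the last 90 bases are held by Rn7sk alone, as the map of shared stretches shows. These copies drew few counts. How reads with several matches were counted is not given in the sources used here, so few counts on a copy do not show that it made few reads. Gm24447, identical to Rn7sk over 241 bases, had 8 counts in the 2i library at 4 hr, 1 in the vitC library at 16 hr and 0 in the other 6, and the most counted copy, Gm24146, never reached more than 0.206% of the Rn7sk count.

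In Rmrp, 75 of 222 windows lie in a transcript of Ccdc107 on the opposite strand, and in Rpph1, 184 of 270 lie in a transcript of Ccnb1ip1 on the same strand. The TruSeq RNA kit used does not mark strand, so reads of a gene and of its antisense partner cannot be told apart. Ccdc107 had 0.0256% to 0.0935% of the Rmrp count and Ccnb1ip1 0.0603% to 0.174% of the Rpph1 count. The counting of reads that lie in both overlapping genes is not given either, so these values do not show how far each count is its own. Rpph1 also has a pair of noncoding relatives, Rprl2 (85.6% identity over 257 bases) and Rprl3 (86.0% over 257 bases), with no exact window in common. Rmrp and Rpph1, whose particles share proteins, have no exact run longer than 9 bases in common. There are 2 such runs, CAGCGGGGC from base 183 of Rmrp and base 17 of Rpph1, and GCAGTGCGA from base 221 of Rmrp and base 246 of Rpph1.

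As their choice implies, the 3 RNAs were among the most counted genes of every library, taking 4.60% to 11.3% of all counts together. Over 4, 16, 24, and 32 hr they summed to 8.38%, 8.01%, 5.85%, and 11.3% in 2i. With vitC the sums were 5.18%, 5.10%, 4.60%, and 7.83% over the same times. The vitC library was below the 2i library at each time, although the 4 hr to 32 hr ranges of the groups overlap. Ranked by count, Rn7sk was place 2 or 3 in every library, Rmrp place 1 to 5, and Rpph1 place 1 to 4.

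Rn7sk spanned 1.62-fold in 2i and 1.33-fold with vitC. Over the 4 times it took 2.94%, 2.85%, 2.40%, and 3.90% of counts in 2i. With vitC it took 1.88%, 2.05%, 1.75%, and 2.32%. The highest vitC library lay below the lowest 2i library, so the groups did not overlap, and within each treatment the 24 hr library was the lowest and the 32 hr library the highest. The share of all genes whose groups separate in this way was not determined.

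Rmrp varied most. Its share in 2i began at 3.22%, was 1.94% and 1.51% at the middle times, and 5.27% at 32 hr, where it was the most counted gene of the library. With vitC the shares were 1.23%, 1.30%, 1.38%, and 2.19%. The groups overlapped, since the 2i libraries at 16 and 24 hr lay below the vitC library at 32 hr. In 2i the lowest value was at 24 hr, whereas with vitC it was at 4 hr, and both treatments had their highest value at 32 hr.

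Rpph1 followed another order. Its shares in 2i were 2.23%, 3.22%, 1.93%, and 2.15%. With vitC they were 2.07%, 1.75%, 1.47%, and 3.32%. The groups overlapped throughout, with the highest library of all being vitC at 32 hr and the lowest vitC at 24 hr, and in 2i the highest was at 16 hr. The widest Wilson 95% interval of a share was 5.255% to 5.279%, for Rmrp in 2i at 32 hr, but these intervals cover counting error only, as the reads carry no molecular identifiers and may repeat a molecule.

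**Figure D2:**
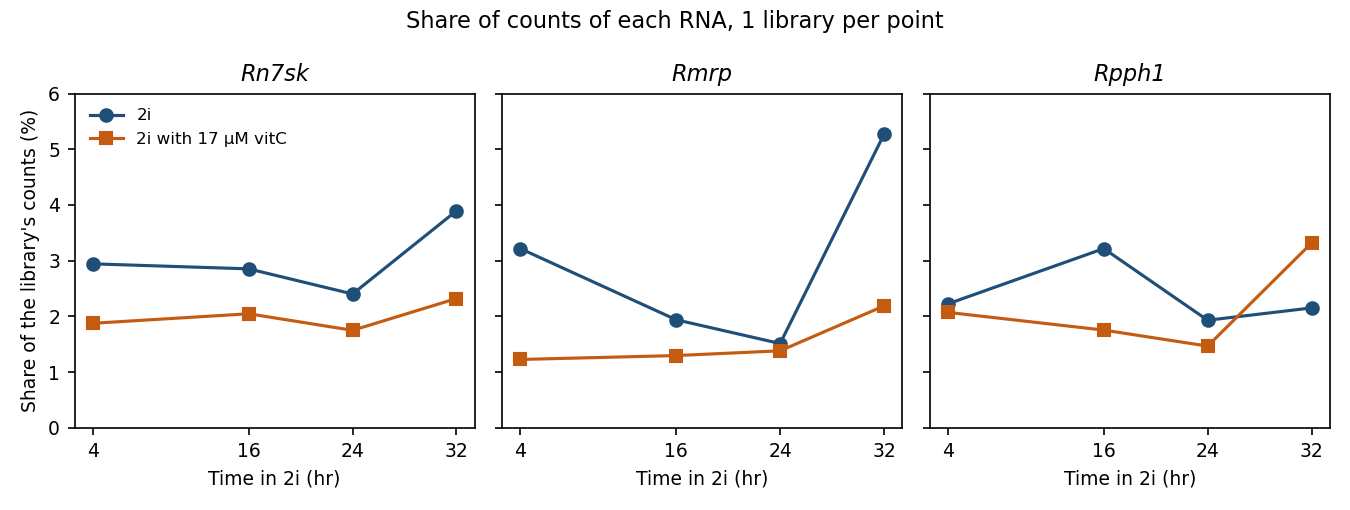
Share of a library's counts (%) taken by each RNA against time in 2i (hr), in 2i (blue circles) and 2i with 17 µM vitC (orange squares), with 1 library per point and no error bars. The vitC points of Rn7sk (1.75% to 2.32%) all lie below its 2i points (2.40% to 3.90%), whereas the points of Rmrp and Rpph1 overlap, and Rmrp has the widest range (1.23% to 5.27%). The share of all genes that separate as Rn7sk does was not determined.

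From the lowest to the highest of the 8 libraries, the share spanned 2.23-fold for Rn7sk, 4.29-fold for Rmrp, and 2.26-fold for Rpph1. The SD of log2 CPM (counts relative to the scaled library total) over the 8 libraries was 0.38, 0.74, and 0.39 in the same order. The median SD was 0.33 over the 14931 genes tested and 0.22 over the 2336 genes with a mean above 100 CPM, so all 3 RNAs varied more than the middle gene of either set. Per library, the share of counts per kb of RNA, which allows for the different lengths of the RNAs, changed its order. The whole length was used, although part of each RNA is shared with other transcripts. How reads from such parts were counted is not given, so the order depends on that too. Rmrp was the highest in 2i at 4 hr (11.9% per kb) and 32 hr (19.4% per kb), Rpph1 in 2i at 16 hr (10.1% per kb) and with vitC at 4 and 32 hr (6.49% and 10.4% per kb), and Rn7sk in the other 3. The medians over the 8 libraries were 7.13% per kb for Rn7sk, 6.62% for Rpph1, and 6.37% for Rmrp, and no neighbours in this order differed beyond the overlap of their ranges.

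Whether vitC altered the RNAs was asked by setting each vitC library against the 2i library of the same time, which shared its sequencing lane. Rn7sk was lower with vitC at all 4 times, Rmrp at all 4, and Rpph1 at 3 of 4, but none of the 3 passed the test across all genes. For Rn7sk the differences in log2 CPM from the first time to the last were −0.69, −0.43, −0.45, and −0.77. For Rmrp they were −1.43, −0.53, −0.12, and −1.29, largest at the first and last times. For Rpph1 they were −0.15, −0.82, and −0.39 up to 24 hr and 0.60 at 32 hr, where the sign was the opposite.

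The test was edgeR's quasi-likelihood test with additive effects of time and treatment on all 8 libraries and Benjamini-Hochberg adjustment over the 14931 genes. With 3 residual degrees of freedom, its error measures how far the treatments depart from parallel time courses, which is no measure of how cultures vary. The log2 fold change of Rn7sk with vitC was −0.59 (SE 0.12, adjusted p = 0.0554), that of Rmrp −0.85 (SE 0.19, adjusted p = 0.0739), and that of Rpph1 −0.19 (SE 0.18, adjusted p = 0.688). Thus 0 of 3 passed at 0.05, against 0.107% of all genes called higher and 0.0603% called lower. Rn7sk passed in DESeq2 (−0.58, adjusted p = 7.79e-05), where Rmrp did not (adjusted p = 0.680). Both Rn7sk and Rmrp passed in edgeR after all libraries were thinned to the smallest total (adjusted p = 0.0393 and 0.0477). Both also passed in edgeR without the filter on low counts (adjusted p = 5.56e-09 and 1.98e-18). There the estimates of Rn7sk and Rmrp stayed at −0.59 and −0.85 while many more genes were called in all, and why was not tested. Neither passed without the time block (adjusted p = 0.964 for each), with the log2 share of counts on Lars2 and 2 further features as a covariate (adjusted p = 0.104 and 0.274), or with any 1 library left out (adjusted p from 0.0510 to 0.329 for Rn7sk and from 0.0526 to 0.311 for Rmrp). Across all alternatives of this fit, including each library left out in turn, the log2 fold change ran from −0.64 to −0.51 for Rn7sk, from −1.09 to −0.63 for Rmrp, and from −0.45 to 0.02 for Rpph1. Depth moved with treatment, as the vitC libraries held 4753528 to 13157570 counts (median 9431406) and the 2i libraries 12940716 to 18434932 (median 15504519.5), and its part in the differences was not tested beyond the thinning.

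**Figure D3:**
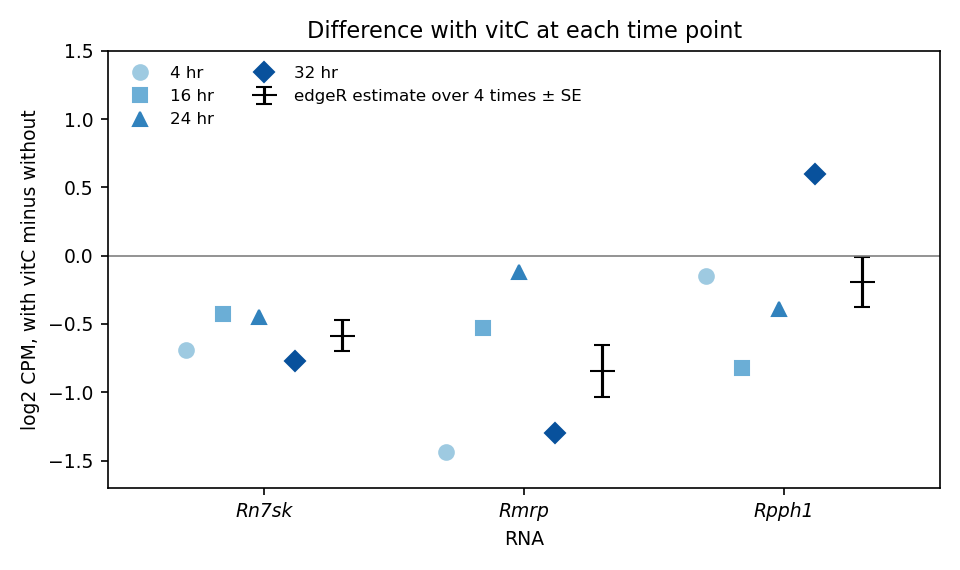
Difference in log2 CPM between the vitC and the 2i library of the same time, for each RNA at 4, 16, 24, and 32 hr (blue symbols), beside the edgeR estimate over all times with its SE (black). All 4 points lie below 0 for Rn7sk (−0.77 to −0.43) and Rmrp (−1.43 to −0.12), whereas Rpph1 has 3 below and 1 above (0.60 at 32 hr).

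A change of the vitC difference with hours was tested by adding a linear term, coded as the change from 4 to 32 hr, which leaves 2 residual degrees of freedom. The term was −0.04 (SE 0.40) for Rn7sk, 0.37 (SE 0.58) for Rmrp, and 0.69 (SE 0.54) for Rpph1 on the log2 scale. None of the 3 passed (adjusted p = 0.9997 for each, edgeR), and the percentage of all genes called was 0%, with 431 genes at an unadjusted p under 0.05 and DESeq2 calling 1 gene. The opposite sign of Rpph1 at 32 hr is therefore a description of those libraries.

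Time was compared within a lane from 4 to 24 hr and from 16 to 32 hr, where the paired libraries ran side by side. None of the 3 RNAs passed from 4 to 24 hr, where 11.5% of all genes were called higher and 8.98% lower. The log2 fold changes were −0.17 (SE 0.16) for Rn7sk, −0.42 (SE 0.27) for Rmrp, and −0.32 (SE 0.25) for Rpph1. The Rmrp estimate joins unlike values, since the 24 hr library differed from the 4 hr library by −1.09 in 2i and by 0.23 with vitC. For Rpph1 the same differences were −0.20 and −0.44, and for Rn7sk −0.29 and −0.05.

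From 16 to 32 hr, 0 of 3 passed as well, with 0.335% of all genes called higher and 0.248% lower. Rmrp had the largest estimate, 1.13 (SE 0.27, adjusted p = 0.0812, edgeR), from a difference of 1.501 in 2i and 0.73 with vitC. It passed without the 2i library at 4 hr (adjusted p = 0.0408), without the vitC library at 4 hr (adjusted p = 0.0428), and without the filter on low counts (adjusted p = 6.19e-16). Rn7sk, at 0.34 (SE 0.16), joined 0.51 in 2i and 0.16 with vitC. Rpph1, at 0.21 (SE 0.26), joined values of opposite sign, −0.52 in 2i and 0.90 with vitC.

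From 4 to 16 hr and from 4 to 32 hr lane and time cannot be told apart. From 4 to 16 hr none of the 3 passed, against 9.16% of all genes called higher and 7.24% lower, and the log2 fold changes were 0.03 (SE 0.16) for Rn7sk, −0.36 (SE 0.26) for Rmrp, and 0.16 (SE 0.25) for Rpph1. From 4 to 32 hr 1 of 3 passed, against 13.5% of all genes called higher and 11.8% lower. This was Rmrp, which rose by 0.76 (SE 0.26, adjusted p = 0.0499, edgeR), with 0.71 in 2i and 0.85 with vitC. The call was lost with RLE scaling (adjusted p = 0.0552), in DESeq2 (adjusted p = 0.594), with no treatment term (adjusted p = 0.273), and without any of 3 libraries, namely 2i at 32 hr (0.43, adjusted p = 0.482), vitC at 4 hr (0.41, adjusted p = 0.394), and vitC at 32 hr (1.04, adjusted p = 0.0788). Rn7sk, at 0.36 (SE 0.16, adjusted p = 0.119), and Rpph1, at 0.37 (SE 0.25, adjusted p = 0.304), did not pass.

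The ratio of a pair of these RNAs within a library depends neither on the library total nor on a scaling factor. The ratio of Rmrp to Rpph1 counts, the RNase MRP RNA to the RNase P RNA, was 1.45, 0.603, 0.784, and 2.45 over the 4 times in 2i. With vitC it was 0.593, 0.739, 0.942, and 0.660. Rpph1 thus had more counts than Rmrp in all 4 vitC libraries and in the 2i libraries at 16 and 24 hr. These counts are not corrected for length, and per kb Rmrp was the higher with vitC at 24 hr (5.10% against 4.60% per kb). The span of the ratio was 4.06-fold in 2i and 1.59-fold with vitC.

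The ratio of Rn7sk to Rmrp was 0.915, 1.47, 1.59, and 0.740 in 2i and 1.53, 1.58, 1.27, and 1.06 with vitC. Rmrp thus had more counts than Rn7sk only in the 2i libraries at 4 and 32 hr. Per kb it was also the higher with vitC at 32 hr (8.07% against 7.01% per kb). The ratio of Rn7sk to Rpph1 was 1.32, 0.887, 1.24, and 1.81 in 2i and 0.905, 1.17, 1.19, and 0.700 with vitC. The treatments were compared on the log2 ratios by an exact two-sided permutation test that exchanged the labels within each time, which has 16 arrangements and cannot give a p below 2 of 16. The vitC minus 2i difference was −0.65 ± 1.11 for Rmrp to Rpph1 (SD, n = 4 times, exact p = 0.5), 0.26 ± 0.47 for Rn7sk to Rmrp (exact p = 0.375), and −0.40 ± 0.76 for Rn7sk to Rpph1 (exact p = 0.375). Adjusted over the 3 ratios, each p was 0.5, and this design could not have reached 0.05. Each difference was smaller than the SD between times.

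**Figure D4:**
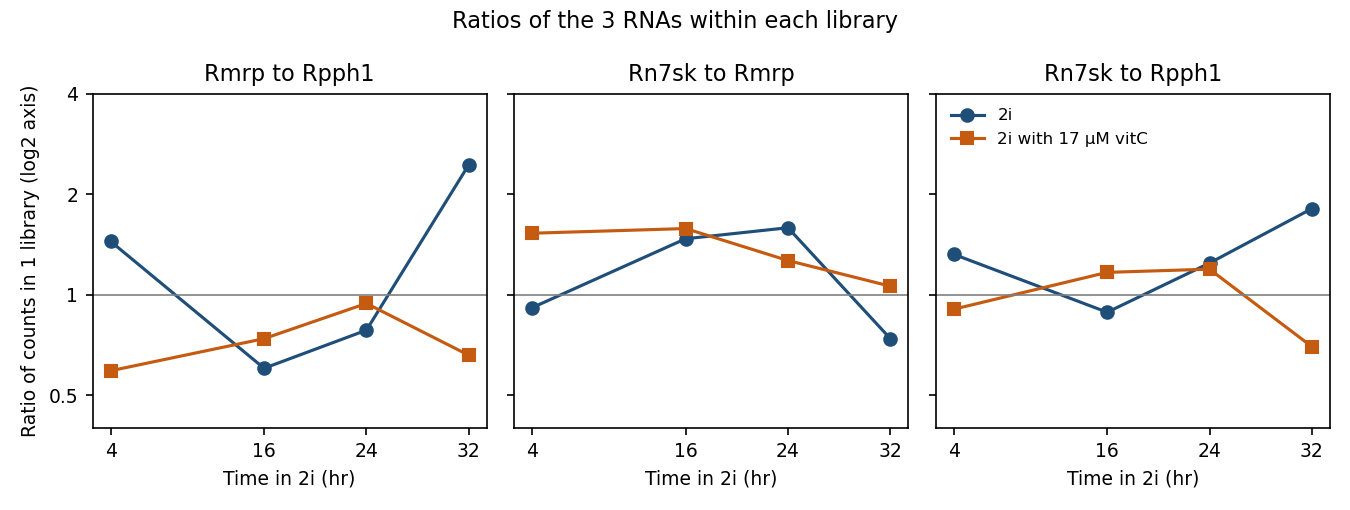
Ratio of the counts of each pair of RNAs in 1 library (log2 axis) against time in 2i (hr), in 2i (blue circles) and with vitC (orange squares). The Rmrp to Rpph1 ratio of 2i runs from 0.603 to 2.45 and that of vitC from 0.593 to 0.942, and the grey line marks equal counts.

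The pattern of the RNAs over the 8 libraries was compared with that of 11121 genes with a mean of at least 5 CPM, by Pearson's r of log2 CPM, given as a description. Rn7sk and Rmrp had r = 0.92 with each other, the sixth highest value for either one. Rpph1 had r = 0.40 with Rn7sk, at place 2084 among the genes most like Rpph1, and 0.32 with Rmrp, at place 2692. The genes most like Rn7sk were Hist1h2ab, a replication-dependent histone gene (0.96), Gm13929 (0.95), and Zfp688 (0.94), those most like Rmrp were the pseudogenes Gm15427 (0.96) and Gm1826 (0.95) and Pdha1, a pyruvate dehydrogenase subunit (0.94), and those most like Rpph1 were Rasa4 (0.96), Tctn1 (0.95), and the kinase gene Araf (0.94). The libraries differ in depth and lane, the 3 RNAs are read from the same libraries, and r with the log2 library total was 0.64 for Rn7sk, 0.46 for Rmrp, and 0.71 for Rpph1.

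The genes of the proteins that make, carry or regulate these RNAs were taken from 5 lists, of which 55 genes could be tested. From 4 to 24 hr, 15 of the 55 fell (27.3%, against 8.98% of all genes), 0 rose, and 40 did not pass, with a median log2 fold change of −0.29 against 0.01 over all genes tested. From 4 to 16 hr 14 fell (25.5%, against 7.24% of all genes) and 1 rose (1.82%, against 9.16%), with a median of −0.33. From 4 to 32 hr 13 fell (23.6%, against 11.8% of all genes) and 0 rose, with a median of −0.26. With vitC, and from 16 to 32 hr, 0 of 55 passed, with medians of 0.004 and 0.07. These comparisons with 4 hr share the 4 hr libraries, and the fall from 4 to 24 hr rested on few libraries. It came to 4 genes without the 2i library at 24 hr, 5 without the vitC library at 4 hr, 1 without the vitC library at 24 hr, and 9 without a treatment term. From 4 to 16 hr 3 genes fell without the 2i library at 16 hr or the vitC library at 4 hr, 9 without the 2i library at 4 hr or the vitC library at 16 hr, and 6 without a treatment term. From 4 to 32 hr 7 fell without the 2i library at 32 hr, 8 without the vitC library at 4 hr, and 6 without the vitC library at 32 hr. Among the 15 that fell from 4 to 24 hr, Crcp passed in 14 of 16 alternatives, Pop5 and Rpp14 in 13, and Polr2h and Pop7 in 6 and 5.

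Of the 7 genes of the 7SK particle and P-TEFb, 2 fell from 4 to 24 hr, against 8.98% of all genes. Hexim1, whose protein blocks P-TEFb when bound to 7SK, was at 131 CPM at 4 hr and 71.2, 83.2, and 54.4 CPM at 16, 24, and 32 hr in 2i. With vitC it was at 115, 83.4, 83.7, and 69.8 CPM. Both 4 hr libraries stood above all later ones, and the fall was −0.53 (adjusted p = 0.0342) at 24 hr, −0.69 (adjusted p = 0.0134) at 16 hr, and −0.99 (adjusted p = 0.00109) at 32 hr in edgeR. At 32 hr it passed in all 16 alternatives, and at 24 hr in 8. For 16 and 32 hr against 4 hr lane and time cannot be told apart, and no alternative addressed the lane. Mepce, the enzyme that caps the 5′ end of 7SK, fell from 60.3 to 39.8 CPM in 2i and from 56.5 to 38.3 CPM with vitC between 4 and 24 hr (−0.56, adjusted p = 0.0272, edgeR). Larp7, which binds the 3′ end of 7SK, Cdk9, Ccnt1, Ccnt2 and Hexim2 did not pass at any time, with log2 fold changes from −0.53 to −0.02 at 24 hr.

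Of the 11 protein genes shared by or special to RNase P and RNase MRP, 5 fell from 4 to 24 hr, against 8.98% of all genes. These were Pop1 (−0.82, adjusted p = 0.0219), Pop5 (−0.96, adjusted p = 0.00482), Pop7 (−0.61, adjusted p = 0.0451), Rpp14 (−0.73, adjusted p = 0.00925), and Rpp30 (−0.60, adjusted p = 0.0228) in edgeR. Pop1, the largest protein of both particles, was at 149, 126, 117, and 112 CPM over the 4 times in 2i and at 154, 78.1, 62.3, and 50.3 CPM with vitC. The later vitC libraries were lower than the later 2i libraries for Pop1, and its log2 fold change with vitC was −0.67 (adjusted p = 0.0815, edgeR). Pop4, Rpp21, Rpp25, Rpp25l, Rpp38, and Rpp40 did not pass at any time.

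Of 17 polymerase III subunit genes tested, 6 fell from 4 to 24 hr, against 8.98% of all genes. Among them were Crcp (−0.79, adjusted p = 0.00559), Polr1d (−0.60, adjusted p = 0.0205), Polr3f (−0.50, adjusted p = 0.0271), Polr1c (−0.49, adjusted p = 0.0281), and Polr2h (−0.50, adjusted p = 0.0466) in edgeR, of which Polr1c and Polr1d also serve polymerase I and Polr2h all 3 polymerases. The genes of the catalytic core, Polr3a and Polr3b, had log2 fold changes of 0.03 and −0.32 at 24 hr and did not pass there, and Polr3b fell at 32 hr (−0.48, adjusted p = 0.0181). Polr3g, the form of its subunit that is prominent in pluripotent cells, was at 147 to 208 CPM and had a log2 fold change of −0.24 at 24 hr (adjusted p = 0.263). Polr3c was the 1 gene that rose, from 4 to 16 hr (0.54, adjusted p = 0.0484, edgeR), and it passed in 6 of 16 alternatives. Polr2k did not pass the filter on low counts.

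Among 18 initiation and regulation genes tested, 2 fell from 4 to 24 hr, against 8.98% of all genes. These were Tbp, the TATA-binding protein (−0.53, adjusted p = 0.0302), and Gtf3c5, a subunit of TFIIIC (−0.68, adjusted p = 0.0140), in edgeR. Of the factors particular to the promoter class of these 3 RNAs, the SNAPc genes Snapc1 to Snapc5 had log2 fold changes of −0.55 to 0.12 and did not pass. Brf2 had −0.64 at 24 hr (adjusted p = 0.0582, edgeR) and fell at 16 hr (−0.73, adjusted p = 0.0384, edgeR). The Brf2 call at 16 hr crosses lanes and was kept in 7 of 16 alternatives. Maf1, the repressor of polymerase III, had −0.55 at 24 hr (adjusted p = 0.0761, edgeR).

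**Figure D5:**
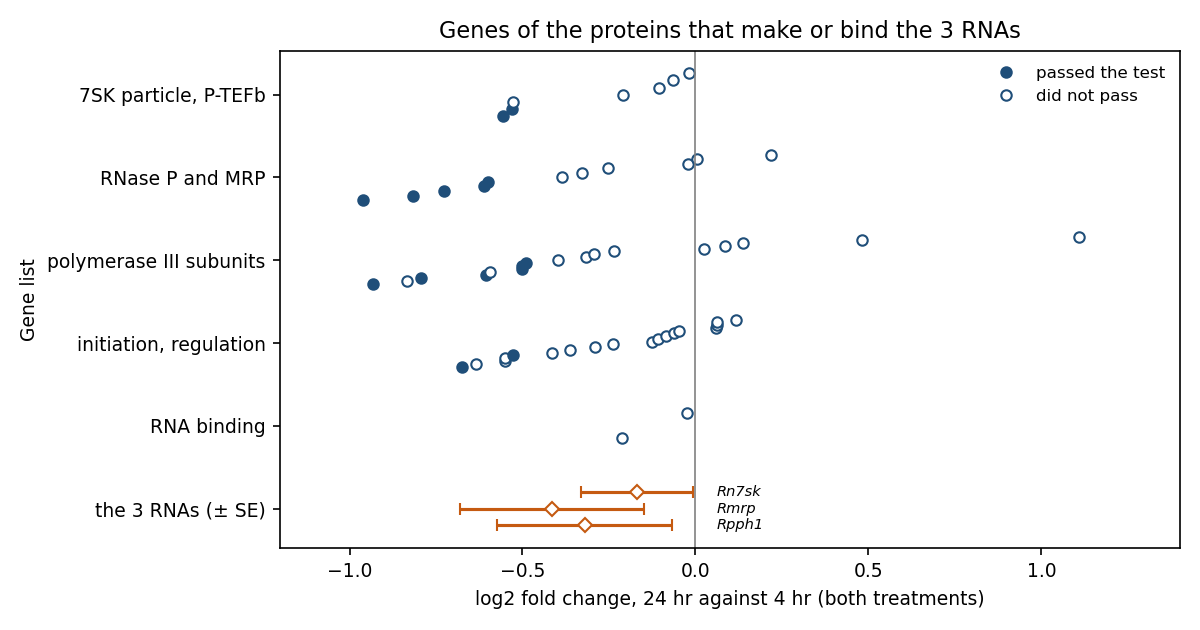
log2 fold change from 4 to 24 hr over both treatments for the 55 protein genes tested, by list (filled circles passed the edgeR test, open circles did not), with Rn7sk, Rmrp, and Rpph1 below (orange, ± SE). The 15 filled circles all lie below 0, between −0.96 and −0.49, and the 3 RNAs lie between −0.42 and −0.17.

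Of 12 other polymerase III RNAs listed, 6 had a row and 5 could be tested. Rny1 and Rny3, the Y RNAs that bind the Ro60 protein, rose from 4 hr. Rny1 was at 44.7 CPM at 4 hr and 255, 156, and 130 CPM at 16, 24, and 32 hr in 2i, and at 53.3, 118, 86.7, and 117 CPM with vitC. In 2i Rny3 was at 48.7, 311, 182, and 132 CPM over the 4 times. With vitC it was at 49.1, 82.2, 62.7, and 94.6 CPM, so its estimates join a larger rise in 2i with a smaller one. From 4 to 24 hr Rny1 rose by 1.27 (adjusted p = 0.00422) and Rny3 by 1.14 (adjusted p = 0.0296) on the log2 scale in edgeR, and both also passed at 16 hr and 32 hr. Rny1 passed in 14 to 16 of 16 alternatives at each time and Rny3 in 8 to 13. In the 2i libraries both were highest at 16 hr, as was Rpph1.

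Rprl3, the relative of Rpph1, had counts of 10676, 34418, 39817, and 5839 in 2i and 12613, 9257, 4122, and 25262 with vitC, which is 1.99% to 15.9% of the Rpph1 count. It peaked at 24 hr in 2i (3077 CPM), where Rpph1 was at its lowest 2i share. With vitC both were lowest at 24 hr and highest at 32 hr, with Rprl3 at 867 and 2124 CPM. The log2 fold change of Rprl3 from 4 to 24 hr was 1.41 (adjusted p = 0.130, edgeR). How reads that match both were counted is not given in the sources used here. Adding the near-copies to the Rpph1 count gave −0.22 in place of −0.32 from 4 to 24 hr and −0.20 in place of −0.19 for vitC, and adding the 24 near-copies of Rn7sk gave −0.585 in place of −0.586 for vitC.

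Of 7 listed nuclear RNAs of polymerase II that could be tested, Neat1, Rnu11, Meg3, and Snhg11 rose from 4 to 24 hr, where 11.5% of all genes were called higher, and 0 fell. Neat1 passed in 15 of 16 alternatives, Meg3 in 13, Rnu11 in 12, and Snhg11 in 10, and none of these 4 passed with the Lars2 share as a covariate. Rnu11 and Rnu12 were low, with means of 5.46 and 0.94 CPM. Malat1, the most abundant of the 7, was at 7350 to 11490 CPM in the 8 libraries and did not pass in any comparison with 4 hr. Terc, the telomerase RNA, was at 14.9 to 40.0 CPM, with a log2 fold change of −0.51 with vitC (adjusted p = 0.158, edgeR).

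The 6 ESC markers summed to 1270 to 1486 CPM over all libraries, but their members moved both ways. From 4 to 24 hr Sox2 (1.03) and Esrrb (0.60) rose and Pou5f1 fell (−0.68), and Zfp42 fell at 16 hr (−0.91) and 32 hr. Primitive endoderm markers summed to 2.28 to 6.31 CPM, with Sox7 at 0 in a library and Sox17 called higher at 32 hr (2.89, adjusted p = 0.0302, edgeR). Mesendoderm markers summed to 23.6 CPM at 4 hr and 9.89 CPM at 24 hr in 2i, and to 21.9 and 10.5 CPM with vitC, with Mixl1 at 0 in a library. Of these, T (−1.13 at 24 hr) and Eomes (−1.35 at 24 hr) fell in all 3 comparisons with 4 hr, as some of the protein genes above did. Over the 4 times the 4 fibroblast markers summed to 107, 262, 352, and 277 CPM in 2i, and to 92.9, 407, 647, and 400 CPM with vitC. Col1a1 and Col1a2 rose in all 3 comparisons with 4 hr, Dcn stayed at or under 3.03 CPM and did not pass, and Thy1, at or under 6.44 CPM, fell at 32 hr (−1.80, adjusted p = 0.0157, edgeR). The part of the mesendoderm and fibroblast markers in the fall of the protein genes was not tested. The summed counts of Lars2, Gm23935 and ENSMUSG00000093077 ran from 0.0113% in the vitC library at 4 hr to 7.11% in the vitC library at 16 hr and were lowest in both 4 hr libraries. With their log2 share as a covariate, a fit added later, 0 protein genes and 0 of all genes were called from 4 to 24 hr. The estimates of the 15 protein genes that fell were as large or larger in 7 and smaller in 8, with a median of −0.76 in place of −0.60, and this fit has 1 residual degree of freedom fewer. The r of this log2 share with the 3 RNAs was −0.20 for Rn7sk, −0.20 for Rmrp, and −0.22 for Rpph1. In bulk RNA, fewer cells of a type and less RNA per cell cannot be told apart.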

How the data were processed

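RNA-seq was measured in 8 libraries of E14 ESCs. Per the labels and the study's methods, the authors depleted ribosomal RNA, made TruSeq libraries, aligned reads of 50 bases with GSNAP (build NCBIM37, mm9, in the submitters' processing notes) and deposited raw HTSeq counts per gene without normalization. The annotation release and the treatment of reads with several matches are not given in the sources used here. Totals were 4753528 to 18434932 counts. No 2 libraries were identical.

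Of 37263 identifiers, 32604 were found in GENCODE M21 (GRCm38), used for symbols, lengths and RNA sequences, with no coordinates. Windows of 50 bases and near-copies were found with BLAST+ 2.17.0 and Python 3.11.15. No promoter sequence was used. A gene was tested if 2 or more libraries had 1 CPM or more (14931 genes), with edgeR 4.0.16 in R 4.3.3 (TMM, quasi-likelihood, Benjamini-Hochberg, threshold 0.05) in an additive model of time and treatment. log2 CPM used a prior count of 2. The edgeR tests were run on simulated counts that had the same spread beyond counting error for every gene. This does not show how the tests behave on these data. Groups came from the labels, and the lane, 8 for 4 and 24 hr and 7 for 16 and 32 hr, from names of the deposited data. The main text of the study gives no test for its RNA-seq, and its supplemental procedures were not used here.

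The members and gene lists were chosen with earlier results of these data known. Genes named are the members, the fixed lists, near-copies and the 3 genes most like each member. Alternatives were other scalings, no filter, DESeq2 1.42.0, thinning, other model terms and each library left out. The Lars2 covariate, the near-copy sums and the RNA class summaries were added after seeing the data. 1 gene of the fixed lists is counted in its list but not reported here.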

Additional observations from a re-analysis of the deposited data

Results flagged for a closer look

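The share of counts on Rmrp with vitC was 1.23%, 1.30%, 1.38%, and 2.19% over the 4 times. The gap between the 32 hr library and the next highest took 0.839 of the whole range, above Dixon's 95% limit for 4 values. The 4 libraries differ in time and are not replicates. This was 1 of 12 such checks on the 3 RNAs, of which chance alone passes about 1 in 20. The difference between these libraries in 2i went the same way, with 5.27% at 32 hr as the highest share.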

How the results depend on the processing

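Of 297 alternative values for the 3 RNAs, 257 kept both direction and side of the 0.05 threshold, 7 lost a call, 12 gained one, and 21 changed sign. For vitC, Rn7sk kept its direction in 17 of 17 alternatives and Rmrp in 16 of 16. The cause of the changes below was not tested. For vitC 25 genes were called, against 54 on library totals alone, 690 with no filter, 299 in DESeq2, 119 after thinning, 0 with no time block, 4 with the Lars2 covariate, and 0 to 458 with a library left out. From 4 to 24 hr 3061 were called, 1891 with no treatment term, 0 with the covariate, and 748 to 3341 with a library left out. From 16 to 32 hr these were 87, with 589 under no filter, 239 in DESeq2, 11 with no treatment term, and 2 to 140. From 4 to 16 hr they were 2448, with 1289 under no treatment term, 73 with the covariate, and 647 to 2063. From 4 to 32 hr they were 3785, with 159 under the covariate and 1403 to 4073. For the term that lets the vitC difference vary with hours, 0 became 5 with no filter, 1 in DESeq2, and 0 to 25. With no filter, calls were gained for vitC by Rn7sk (−0.59) and Rmrp (−0.85), from 4 to 24 hr by Rmrp (−0.42), from 16 to 32 hr by Rmrp (1.13), from 4 to 16 hr by Rmrp (−0.36), and from 4 to 32 hr by Rn7sk (0.38) and Rpph1 (0.39). Calls for vitC were also gained by Rn7sk in DESeq2 (−0.58) and by Rn7sk and Rmrp after thinning (−0.58 and −0.84). The rise of Rmrp from 4 to 32 hr was not called with RLE scaling (0.76), in DESeq2 (0.76), with no treatment term (0.75), or with the covariate (0.47). With the covariate signs turned for Rpph1 (0.038) and Tbp (0.049) from 4 to 24 hr and for Rn7sk (−0.079) from 4 to 16 hr, where no treatment term also turned it (−0.00045). With a library left out, the vitC value ran from −0.45 to 0.021 for Rpph1. Rmrp ran from −0.92 to 0.042 at 24 against 4 hr, from 0.81 to 1.42 at 32 against 16 hr, from −0.74 to 0.054 at 16 against 4 hr, and from 0.41 to 1.21 at 32 against 4 hr. Rpph1 ran from −0.34 to 0.70 at 32 against 16 hr, from −0.28 to 0.55 at 16 against 4 hr, and from −0.20 to 0.84 at 32 against 4 hr, and Rn7sk from −0.081 to 0.145 at 16 against 4 hr. The term for hours ran from −0.65 to 0.41 for Rn7sk, −1.39 to 1.90 for Rmrp, and −0.43 to 2.48 for Rpph1. Relative to the counts left after removing Lars2, its 2 associated features and the other 2 RNAs, the span of shares was 2.19-fold for Rn7sk and 4.41-fold for Rmrp. With 1 library per combination, no result has a spread between cultures, and counting error at these depths is far smaller than the differences between libraries.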

Other observations

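Other short nuclear RNAs were summarised by annotated class after seeing the data. The 119 snoRNAs tested had a median log2 fold change with vitC of −0.37, the 8 snRNAs −0.30, and the 11 scaRNAs −0.41. The 21 genes other than Rn7sk annotated as misc_RNA had −0.36, and the 13137 protein-coding genes −0.01. In the first 4 of these classes 0 genes passed in edgeR, against 0.107% of all genes called higher and 0.0603% called lower. Time by time, the median difference of the snoRNAs with vitC was −0.11, −0.78, −0.78, and 0.15 from 4 to 32 hr. For comparison, Rn7sk was at −0.69, −0.43, −0.45, and −0.77, so that the snoRNAs and Rn7sk were furthest apart at 32 hr, where only 10 of 119 snoRNAs had a lower value than Rn7sk. At 4 hr 4 snoRNAs, and at 32 hr 9, had a lower value than Rmrp, against 94 at 24 hr. Rpph1, at 0.60 at 32 hr, had 83 snoRNAs below it.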
